A study of Mus musculus with 8 samples.

Results

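The nuclear genes of oxidative phosphorylation were examined in mouse liver for RNA polymerase II (Pol II) occupancy and for long-range contacts. They were chosen by name, as protein-coding nuclear genes of the RefSeq annotation on GRCm38 whose symbols begin with Nduf, with Sdh followed by a, b, c or d, with Uqcr, with Cox4 to Cox8, or with Atp5. This gave 100 of 21887 genes: 49 of complex I, 8 of complex II, 8 of complex III, 18 of complex IV and 17 of complex V. Of these, 84 encode subunits and 12 encode assembly factors (8 Ndufaf and 4 Sdhaf genes). The other 4 are the intron-free copies Ndufb4b and Ndufb4c and the related genes Ndufa4l2 and Cox7a2l. No measured value enters this rule.

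All libraries came from livers of wild type C57BL/6 mice aged 3 to 6 months that were entrained to 12 h of light and 12 h of darkness and ate freely. Livers were collected at ZT06 or at ZT18 (hours after lights on), and the chromatin of 3 to 7 livers was combined before precipitation with 8WG16, an antibody to the repeated tail of the largest Pol II subunit. In ChIA-PET, the DNA ends held in a precipitated complex are joined through a linker, and a short tag is sequenced from each side of the joint to give a paired-end tag (PET). Experiments JM08 (4 libraries) and JM12 (2 libraries) were crosslinked with 1.5 mM EGS, which joins proteins over a longer reach, and 1% formaldehyde. Experiment JM11 (2 libraries) had 1% formaldehyde alone. The deposited table names the experiment of each PET but no library or time point, so day and night are combined in every value. Each experiment is thus 1 pool without a spread between replicates, and a difference in crosslinking cannot be told apart from other differences between the experiments.

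Oxidative phosphorylation takes place in the inner mitochondrial membrane. Complexes I and II pass electrons from NADH and succinate to ubiquinone, complex III passes them on to cytochrome c, and complex IV passes them to oxygen. Complexes I, III and IV pump protons, and complex V, the ATP synthase, lets protons flow back to make ATP. The subunits are encoded partly in mitochondrial DNA and mostly in the nucleus, so their supply depends on Pol II as well as on the mitochondrial polymerase. The nuclear genes are known for promoters bound by NRF1, by ETS-family factors such as GABP, by YY1 and by estrogen-related receptors, with PGC-1 proteins as coactivators. Hepatocytes are rich in mitochondria.

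Promoter sequences from RefSeq (GRCm38.p6, 250 bases before to 50 bases after the start) were matched by symbol for 82 of the 100 genes. Those that follow are the 200 bases before the start, 5′ to 3′ on the strand of the gene, with matches to the searched motifs in capitals. They were picked after the matches were known, to show at least 1 promoter of each complex and each kind of match except YY1. Ndufa11 (complex I, chr17:56717562-56717761, plus strand) and Atp5g2 (complex V, chr15:102671048-102671247, minus strand) hold the exact NRF1 palindrome. Cox6a1 (complex IV, chr5:115348959-115349158, minus strand) holds the exact form and a variant that, read on the opposite strand, has another base at the fifth position. Sdha (complex II, chr13:74350241-74350440, minus strand) holds 3 such variants, also on the opposite strand. Uqcrh (complex III, chr4:116075071-116075270, minus strand) holds the ETS motif, and Atp5g3 (complex V, chr2:73911327-73911526, minus strand) the estrogen-related receptor (ERR) motif, both written on the opposite strand.
Ndufa11: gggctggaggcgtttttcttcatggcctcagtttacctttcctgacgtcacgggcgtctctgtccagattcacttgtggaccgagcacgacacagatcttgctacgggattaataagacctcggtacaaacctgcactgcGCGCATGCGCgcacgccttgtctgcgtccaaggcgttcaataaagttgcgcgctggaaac
Sdha: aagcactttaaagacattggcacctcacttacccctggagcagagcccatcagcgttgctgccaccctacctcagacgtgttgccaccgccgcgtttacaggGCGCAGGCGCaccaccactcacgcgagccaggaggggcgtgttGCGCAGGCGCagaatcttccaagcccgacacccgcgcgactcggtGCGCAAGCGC
Uqcrh: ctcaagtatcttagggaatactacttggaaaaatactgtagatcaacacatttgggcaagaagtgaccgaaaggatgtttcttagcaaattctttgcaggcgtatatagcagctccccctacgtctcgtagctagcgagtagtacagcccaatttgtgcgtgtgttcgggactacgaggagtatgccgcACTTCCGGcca
Cox6a1: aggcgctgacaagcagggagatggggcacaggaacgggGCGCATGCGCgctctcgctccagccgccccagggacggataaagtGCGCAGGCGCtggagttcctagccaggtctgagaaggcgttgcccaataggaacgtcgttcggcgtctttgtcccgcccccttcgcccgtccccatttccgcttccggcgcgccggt
Atp5g3: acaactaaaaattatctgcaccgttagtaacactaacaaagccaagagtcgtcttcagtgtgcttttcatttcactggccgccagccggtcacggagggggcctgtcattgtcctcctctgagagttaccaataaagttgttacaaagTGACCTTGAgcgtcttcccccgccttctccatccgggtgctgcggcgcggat
Atp5g2: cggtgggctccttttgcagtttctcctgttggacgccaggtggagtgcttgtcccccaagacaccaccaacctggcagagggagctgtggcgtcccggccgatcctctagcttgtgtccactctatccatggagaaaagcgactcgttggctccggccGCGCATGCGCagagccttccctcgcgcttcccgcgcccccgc

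Motifs were searched on both strands of the whole 300 bases. The NRF1 palindrome, the run of capitals in the Ndufa11 promoter, was in 7 of the 82 promoters (8.54%), against 1.33% of 17492 promoters of all protein-coding genes. With any base at the fifth position, which includes the exact form, it was in 20 of 82 (24.4%), against 6.66%. YY1 as AAGATGGCG was in 7 of 82 (8.54%) against 1.92%, and ERR as TCAAGGTCA in 2 of 82 (2.44%) against 0.332%. The ETS motif CCGGAAGT was in 5 of 82 (6.10%), close to its share of 5.28% in all promoters. A match says only that these letters are present. The median Pol II density of genes with the wider NRF1 motif, on the scale defined next, was 3.25, 1.45 and 2.64 in JM08, JM11 and JM12, and it was 3.58, 1.40 and 2.25 for the others with a promoter entry.

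PET ends were counted over each gene and 2.5 kb on either side. The relative density is this count divided by the count that the same length would hold at the mean of the nuclear genome, so that 1 is the genome's mean. The 100 windows held 2118, 2696 and 2373 ends in JM08, JM11 and JM12, with medians of 17, 21 and 22 ends a gene. The highest count was 84, 168 and 99 ends and the lowest was 0, 0 and 1. Intervals given in brackets are exact Poisson 95% intervals and cover counting error only. A PET with both ends in a window adds 2 ends, and there were 423, 193 and 252 such PETs with ends at most 8 kb apart, so the intervals are narrower than independent molecules would give.

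Pol II PET ends were denser at the median over oxidative phosphorylation genes than over all protein-coding genes in each experiment, least so in JM11. The 100 genes had median relative densities of 3.56 in JM08, 1.42 in JM11 and 2.27 in JM12. All protein-coding genes had medians of 1.216, 1.196 and 1.417. A list of 6 genes of other tissues had medians of 0.696, 1.49 and 1.23, so in JM11 it lay above the 100 genes. A density of at least 2 was reached by 75 of the 100 genes in JM08 (27.7% of all genes), 17 in JM11 (6.52%) and 56 in JM12 (25.4%). It was reached in all 3 experiments by 15 genes (5.32% of all genes) and in none by 21. Of the 100 genes, 94, 84 and 94 lay above the genome's mean in JM08, JM11 and JM12 (61.7%, 69.0% and 73.1% of all genes). This was so in all 3 experiments for 79 genes (47.2% of all genes), and 2 genes, Ndufb4c and Sdhaf3, lay below the mean in all 3.

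The 15 genes at or above 2 everywhere all encode subunits. They are Ndufb10, Ndufs7, Ndufa6, Ndufa2, Ndufb6, Ndufb3, Ndufb2 and Ndufs8 of complex I, Uqcrq and Uqcrfs1 of complex III, and Atp5b, Atp5d, Atp5g1, Atp5g3 and Atp5h of complex V. No gene of complex II or IV was among them. Subunit genes had medians of 3.87, 1.45 and 2.43 in JM08, JM11 and JM12, and the 12 assembly factors had 2.43, 1.19 and 1.44.

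**Figure D1:**
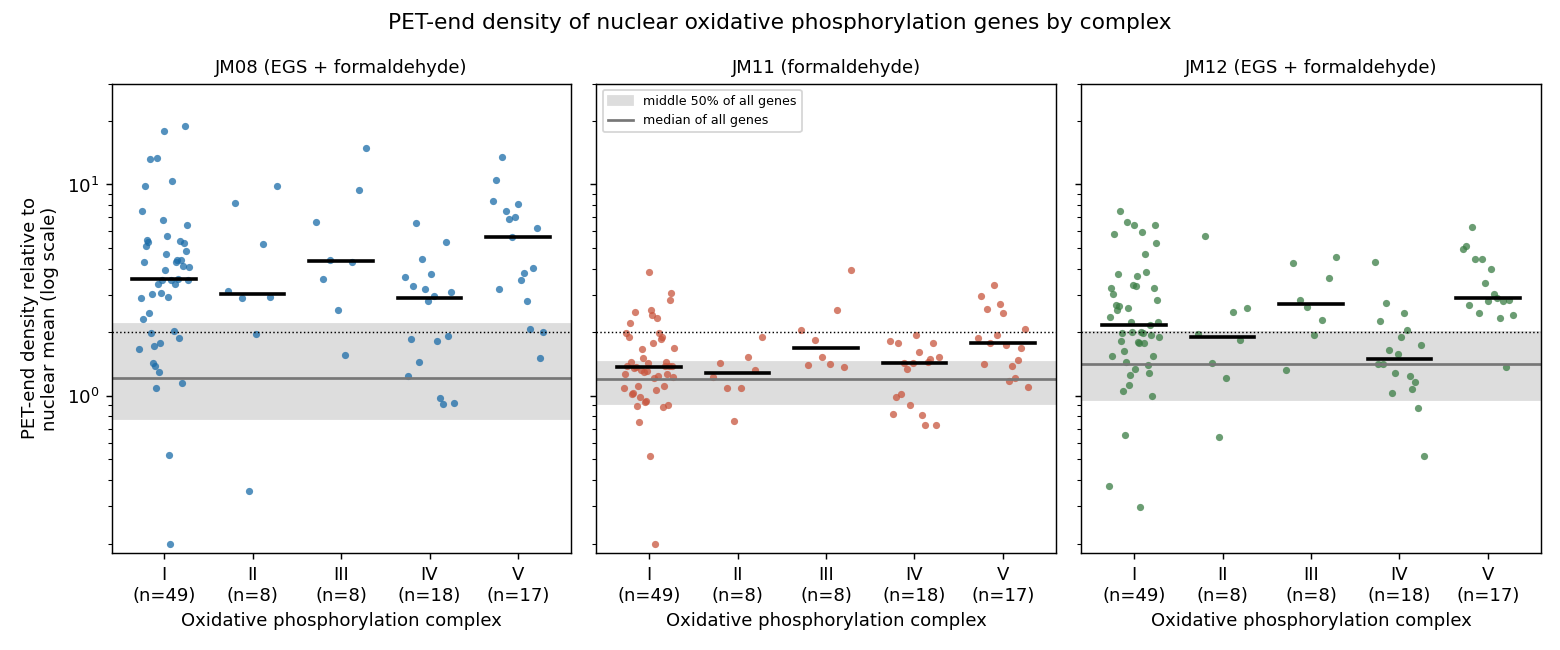
Relative density of PET ends (log scale) for each of the 100 genes, by complex and experiment. Points are genes, black bars are medians of a complex, the dotted line marks a density of 2, and the grey line and band are the median and middle 50% of all protein-coding genes; the values of 0 of Ndufb4c in JM08 and JM11 are drawn at 0.2. With these windows and all PETs, complex V has the highest median in each experiment, and the JM11 values are the most compressed.

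The 5 complexes had different medians. Complex V had the highest median relative density in each experiment, with 5.66 in JM08, 1.77 in JM11 and 2.90 in JM12, and complex III was next with 4.35, 1.68 and 2.72. Complex I had 3.59, 1.36 and 2.16, complex II had 3.03, 1.28 and 1.91, and complex IV had 2.89, 1.43 and 1.499. Averaged over the 3 experiments, these medians were 3.44 ± 2.00 for complex V, 2.92 ± 1.35 for complex III, 2.37 ± 1.13 for complex I, 2.07 ± 0.887 for complex II and 1.94 ± 0.823 for complex IV (SD, n = 3 experiments). Each gap between complexes next to each other in this order was smaller than the SDs of both, and the medians of all 5 complexes were highest in JM08 and lowest in JM11. The SDs thus hold a difference in level that the complexes share, and they do not measure the spread of a gap within an experiment. With these windows and all PETs, the order V, III, I, II held in each experiment. Complex IV was lowest in JM08 and JM12 but above I and II in JM11. Within an experiment the order of V over III also depended on the window and on the PETs counted. Complex III was above complex V in JM08 without flanks (4.88 against 4.31), with flanks of 1 kb (5.62 against 5.53) and with only PETs between chromosomes (4.77 against 3.36). In JM11 it was above with flanks of 5 kb (1.603 against 1.598) and with only PETs between chromosomes (1.56 against 1.44), and in JM12 with only PETs within 8 kb (7.41 against 3.43).

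Complex I feeds electrons from NADH into the chain. Its core subunits carry the flavin and the iron-sulfur clusters, and its accessory subunits stabilise it. The 7 nuclear core genes had medians of 4.83, 1.39 and 2.22 in JM08, JM11 and JM12, and 31 accessory genes had 4.07, 1.39 and 2.35. Neither group was the higher one in all 3 experiments. The highest of the complex by mean log2 density over the experiments was Ndufb10 (chr17:24722060-24724423), an accessory subunit of the membrane arm, with 46 ends in JM08, 30 in JM11 and 29 in JM12. Its relative densities were 17.9 (13.1 to 23.9), 3.85 (2.60 to 5.50) and 6.40 (4.28 to 9.19). The window also holds Rps2, a ribosomal protein gene, and ends of the neighbours cannot be told apart. Ndufs7 (chr10:80249105-80256794), which binds an iron-sulfur cluster near the ubiquinone site, had 84, 38 and 50 ends, or 18.99 (15.2 to 23.5), 2.83 (2.01 to 3.89) and 6.40 (4.75 to 8.44). Its window overlaps Gamt, a creatine synthesis gene. Without flanks, the relative densities were 20.6, 2.80 and 6.18 for Ndufb10 and 26.9, 4.18 and 7.39 for Ndufs7. Other genes depended on the flanks. Ndufb6, an accessory subunit, went from 10.4, 2.33 and 5.99 with flanks to 1.95, 1.82 and 2.39 without. Ndufa6 (chr15:82350139-82354291), an accessory subunit with an LYR motif, had 42, 24 and 42 ends, or 13.2 (9.49 to 17.8), 2.48 (1.59 to 3.69) and 7.45 (5.37 to 10.1). With flanks, Ndufb10, Ndufs7 and Ndufa6 were higher in JM08 than in JM12 and higher in JM12 than in JM11.

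At the other end of complex I stood an intron-free copy and a gene on X. Ndufb4c (chr15:73809449-73809933) had 0 ends in JM08, 0 in JM11 and 1 in JM12. The upper limits of its relative density were 1.93, 0.636 and 1.65, so at this depth the level in JM08 and JM12 could be above or below the genome's mean. The other intron-free copy, Ndufb4b (chr19:25033108-25033578), had 1, 7 and 6 ends, or 0.524 (0.0133 to 2.92), 1.21 (0.487 to 2.49) and 1.78 (0.654 to 3.88). The Ndufb4b window also holds Dock8 and the Ndufb4c window Mroh5. In each experiment 0 ends lay in either copy itself, so all the ends counted for these copies were in the flanks. Their intron-bearing relative Ndufb4 had 12, 22 and 13 ends, at 2.93, 1.77 and 1.79. How reads that match more than 1 of these near-identical copies were treated was not given in the sources used here, so the split among them is uncertain. Ndufa1, on X (chrX:37187588-37191238), a small membrane-arm subunit, had 5, 10 and 2 ends, or 1.66 (0.538 to 3.87), 1.09 (0.524 to 2.01) and 0.376 (0.0455 to 1.36).

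Complex II is the citric acid cycle enzyme succinate dehydrogenase. It is the only complex with no subunit encoded in mitochondria, and its 4 subunit genes were all above the genome's mean in each experiment (47.2% of all genes). Sdhd (chr9:50596340-50603849), a membrane anchor, had 43 ends in JM08, 25 in JM11 and 20 in JM12, with relative densities of 9.86 (7.14 to 13.3), 1.89 (1.22 to 2.79) and 2.60 (1.59 to 4.01). Sdhb (chr4:140961271-140979198), the iron-sulfur subunit, had 42, 37 and 35 ends, or 5.26 (3.79 to 7.10), 1.53 (1.08 to 2.10) and 2.48 (1.73 to 3.45). No other protein-coding gene lies in the Sdhb window, whereas Sdhd shares its window with Timm8b and Nkapd1. Sdha (chr13:74322255-74350240), the flavoprotein whose promoter is printed above, had 36, 43 and 40 ends, or 3.13 (2.19 to 4.33), 1.23 (0.892 to 1.66) and 1.97 (1.41 to 2.68). Sdhc (chr1:171129157-171150640), the second anchor, had 27, 37 and 30 ends, or 2.93 (1.93 to 4.26), 1.32 (0.931 to 1.82) and 1.84 (1.24 to 2.63). The order Sdhd, Sdhb, Sdha, Sdhc of JM08 was Sdhd, Sdhb, Sdhc, Sdha in JM11, and the intervals of Sdha and Sdhc overlapped in every experiment.

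The 4 assembly factors of complex II ranged widely. Sdhaf1 (chr7:30321409-30322375), which helps insert iron-sulfur clusters into Sdhb, had 17, 9 and 21 ends, or 8.17 (4.76 to 13.1), 1.43 (0.652 to 2.71) and 5.72 (3.54 to 8.74). Sdhaf3 (chr6:6955971-7039661), of like function and in a much longer gene, had 11, 71 and 35 ends, or 0.356 (0.178 to 0.637), 0.757 (0.591 to 0.955) and 0.641 (0.447 to 0.892). Its upper limits lay below 1 in all 3 experiments. Sdhaf2, which helps attach flavin to Sdha, had 30, 34 and 26 ends (2.90, 1.08 and 1.42), and Sdhaf4, which binds the flavinylated Sdha, had 10, 17 and 11 ends (1.95, 1.09 and 1.22).

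All 8 complex III genes lay above the genome's mean in each experiment (47.2% of all genes). Uqcrq (chr11:53427922-53430831), a small subunit near the cytochrome b protein, was highest with 41 ends in JM08, 33 in JM11 and 22 in JM12, or 14.9 (10.7 to 20.2), 3.95 (2.72 to 5.54) and 4.52 (2.83 to 6.84). Its JM11 density was the highest of all 100 genes in that experiment. The Uqcrq window also holds Gdf9, and ends of the 2 genes cannot be told apart. Without flanks, Uqcrq had 21.7, 6.18 and 6.14. Uqcrh (chr4:116066965-116075070), the hinge protein that contacts cytochrome c1, had 43, 19 and 29 ends, or 9.41 (6.81 to 12.7), 1.37 (0.826 to 2.14) and 3.59 (2.41 to 5.16). Uqcrfs1 (chr13:30540312-30545316), the Rieske iron-sulfur protein, had 15, 27 and 14 ends, or 4.30 (2.41 to 7.09), 2.55 (1.68 to 3.71) and 2.27 (1.24 to 3.81). Uqcrfs1 was thus next to Uqcrq in JM11, while Uqcrh, among the 3 highest of the complex in JM08 and JM12, was lowest in JM11. The small subunit Uqcr10 had 17, 16 and 6 ends (6.61, 2.05 and 1.32), Uqcr11 had 11, 13 and 23 (3.58, 1.39 and 4.23) and Uqcrb, a ubiquinone-binding subunit, had 15, 19 and 17 (4.40, 1.84 and 2.83). The large core proteins were lower in JM08. Uqcrc1 had 16, 29 and 29 ends (2.55, 1.53 and 2.62) and Uqcrc2 had 16, 44 and 35 (1.57, 1.42 and 1.94).

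Complex IV had the lowest median in JM08 and JM12. A density of at least 2 was reached by 10, 0 and 5 of its 18 genes in JM08, JM11 and JM12. These are 55.6%, 0% and 27.8%, against 27.7%, 6.52% and 25.4% of all genes. In JM12 complex IV was thus close to that background. Several of its subunits have isoforms used in particular tissues, so its genes were compared in pairs. Cox4i1 (chr8:120668225-120674209), the ubiquitous regulatory subunit, had 14, 21 and 29 ends, or 3.66 (2.00 to 6.13), 1.81 (1.12 to 2.76) and 4.29 (2.87 to 6.16). Its partner Cox4i2, known from lung and from hypoxia, had 7, 14 and 14 ends, or 1.245 (0.501 to 2.57), 0.821 (0.449 to 1.38) and 1.41 (0.771 to 2.37). The intervals of this pair did not overlap in JM12 and overlapped in JM08 and JM11. The Cox4i1 window also holds Gm27021 and Emc8 and the Cox4i2 window Bcl2l1. Without flanks, Cox4i1 had 4.31, 1.42 and 4.89 and Cox4i2 had 1.29, 0.850 and 1.61. Cox6a1 (chr5:115345652-115348958) had 19, 9 and 14 ends, or 6.56 (3.95 to 10.3), 1.03 (0.469 to 1.95) and 2.74 (1.497 to 4.59), and the heart and muscle isoform Cox6a2 had 3, 9 and 6 ends, or 1.45 (0.299 to 4.24), 1.44 (0.656 to 2.72) and 1.64 (0.603 to 3.58). Their intervals overlapped in each experiment, and in JM11 Cox6a1 was the lower one. The Cox6a1 window also holds Triap1 and the Cox6a2 window Itgad. Of the 19 ends of Cox6a1 in JM08, 2 lay in the gene itself. Without flanks, Cox6a1 had 1.74, 0.858 and 2.46 and Cox6a2 had 0, 0 and 3.49 in JM08, JM11 and JM12.

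Other pairs did not divide by tissue. Cox7a1 (chr7:30184171-30186030), the heart and muscle isoform, had 9, 14 and 8 ends, or 3.76 (1.72 to 7.14), 1.93 (1.06 to 3.24) and 1.89 (0.818 to 3.73), and the ubiquitous Cox7a2 had 22, 36 and 32, or 2.98 (1.87 to 4.51), 1.61 (1.13 to 2.23) and 2.45 (1.68 to 3.46). Cox7a1 was the higher of the pair in JM08 and JM11, within counting error. The Cox7a1 window also holds Capns1 and the Cox7a2 window Tmem30a. Cox8a, the ubiquitous isoform, had 5, 14 and 4 ends (1.92, 1.78 and 0.871), the heart and muscle isoform Cox8b had 7, 5 and 7 (3.09, 0.727 and 1.75), and Cox8c, of testis, had 2, 10 and 2 (0.921, 1.52 and 0.522). The Cox8b window also holds Psmd13, and 3, 1 and 0 of the Cox8b ends lay in the gene itself. Cox6b1 had 22, 20 and 9 ends (4.46, 1.34 and 1.03) and its testis isoform Cox6b2 had 7, 6 and 5 (3.19, 0.901 and 1.29). The Cox6b2 window also holds Fam71e2. Ndufa4, which carries a complex I symbol but is now regarded as a complex IV subunit, had 23, 13 and 19 ends (5.46, 1.02 and 2.56). Its relative Ndufa4l2, known from hypoxia, had 24, 14 and 30 ends (5.35, 1.03 and 3.78), and the Ndufa4l2 window also holds Stac3 and Shmt2. Phf14 reaches into the Ndufa4 window. Over all pairs, the 8 restricted isoforms had medians of 2.27, 1.23 and 1.53 and the 7 ubiquitous partners 3.66, 1.34 and 2.45. Without the restricted isoforms the 11 genes of complex IV left had medians of 2.98, 1.43 and 1.59.

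**Figure D2:**
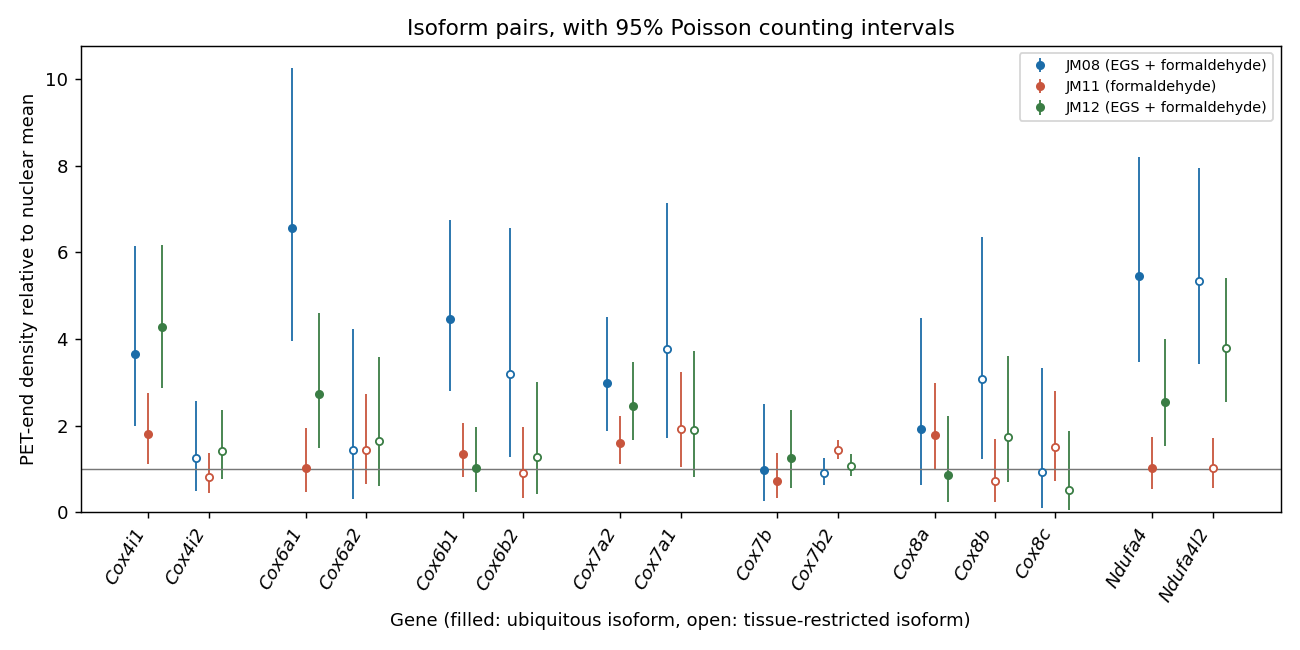
Relative density of PET ends for isoform pairs in each experiment, with 95% Poisson intervals (counting error only). Filled points are ubiquitous isoforms and open points tissue-restricted ones; the intervals separate Cox4i1 from Cox4i2 in JM12, while the intervals of Cox7a1 and Cox7a2 and those of Ndufa4 and Ndufa4l2 overlap in each experiment.

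All 17 complex V genes lay above the genome's mean in each experiment (47.2% of all genes). A density of 2 was reached by 15, 6 and 16 of them in JM08, JM11 and JM12. These are 88.2%, 35.3% and 94.1%, against 27.7%, 6.52% and 25.4% of all genes. Atp5d (chr10:80138698-80145828), the delta subunit of the central stalk, had 57, 33 and 47 ends, or 13.5 (10.2 to 17.5), 2.57 (1.77 to 3.61) and 6.29 (4.62 to 8.37). Atp5b (chr10:128083307-128090388), the catalytic beta subunit, had 44, 38 and 38 ends, or 10.5 (7.59 to 14.0), 2.98 (2.11 to 4.08) and 5.11 (3.62 to 7.01), and 3.24, 2.27 and 3.21 without flanks. Atp5a1, the alpha subunit, had 41, 28 and 43 ends, or 8.34 (5.99 to 11.3), 1.88 (1.248 to 2.71) and 4.95 (3.58 to 6.67). These 3 genes had the highest densities of the complex in JM08 and by mean log2 density over the experiments. In JM11 Atp5g1 was highest. Atp5c1, the gamma subunit of the central stalk, had 33, 44 and 49 ends (3.21, 1.41 and 2.70). Each of these 4 windows holds a neighbour: Cbarp and Midn beside Atp5d, Baz2a beside Atp5b, Haus1 beside Atp5a1 and Kin beside Atp5c1. The 3 genes Atp5g1, Atp5g2 and Atp5g3, which encode the same mature c-ring protein, have no neighbour in their windows. Atp5g1 had 19, 28 and 12 ends (6.90, 3.35 and 2.47), Atp5g2 had 26, 27 and 36 (5.66, 1.94 and 4.44) and Atp5g3 had 22, 26 and 19 (7.00, 2.73 and 3.42). The c-ring genes were close together in JM08 and in the order Atp5g2, Atp5g3, Atp5g1 in JM12. Lowest by mean log2 density over the experiments were Atp5pb, of the peripheral stalk, with 15, 25 and 32 ends (2.00, 1.10 and 2.41), and Atp5l, a membrane subunit, with 9, 16 and 18 (2.07, 1.21 and 2.34). In single experiments others were lower, with Atp5o at 1.51 in JM08 and Atp5mpl at 1.37 in JM12.

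Oxidative phosphorylation genes are short, so they were set against genes of similar span. Their median span was 7.34 kb, against 17.2 kb for other protein-coding genes, and the densities of the 100 genes were weakly lower in longer genes (Spearman's rho −0.33, −0.29 and −0.19 in JM08, JM11 and JM12, as a description across genes that share libraries). Each gene was divided by the median of all other protein-coding genes with a span from 20% below to 25% above its own (136 to 2745 genes). The median of this ratio was 2.49 in JM08, 1.18 in JM11 and 1.43 in JM12. The gene lay above its reference in 90, 71 and 73 of 100 cases (50.0%, 50.0% and 50.1% of all genes), and in all 3 experiments in 56 cases (25.7% of all genes). Complex V had the highest median ratios in each experiment, at 3.32, 1.45 and 1.76, and complex IV the lowest in JM08 and JM12, at 2.08 and 1.11. In JM11 complex II was lowest with 1.08.

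**Figure D3:**
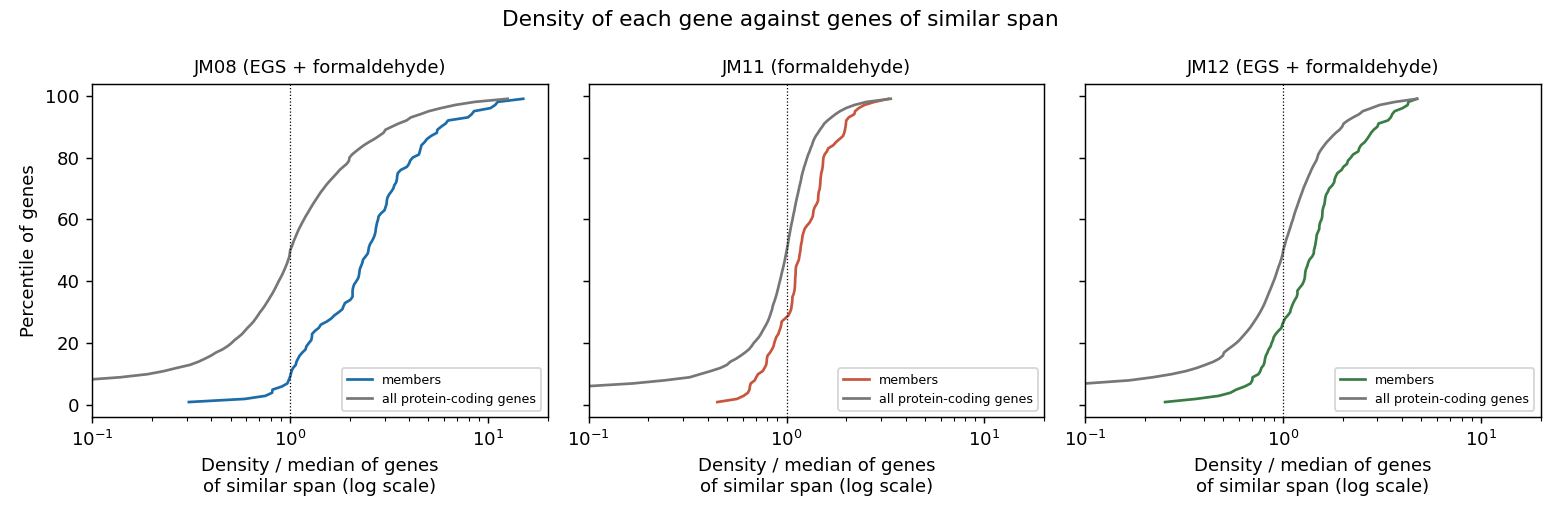
Relative density of each gene divided by the median of genes of similar span (log scale), as percentiles over the 100 oxidative phosphorylation genes (coloured) and over all protein-coding genes (grey). The coloured curve lies to the right of the grey one over most percentiles in each experiment, with median ratios of 2.49 in JM08, 1.18 in JM11 and 1.43 in JM12.

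Neighbouring genes also differed between the sets. Another protein-coding gene reached into the window of 68 of the 100 genes (68.0%) and of 39.6% of other genes. Among other genes, those with a neighbour were denser (1.70, 1.26 and 1.75 in JM08, JM11 and JM12) than those without (1.03, 1.15 and 1.24). When the reference was limited to genes of similar span with the same neighbour status, a comparison chosen after the values were seen, the median ratios were 1.79, 1.13 and 1.18. The gene lay above this reference in 83, 64 and 68 cases (49.8%, 49.8% and 49.9% of all genes), and in all 3 experiments in 49 cases (25.4% of all genes). The 32 genes without a neighbour had densities of 3.13, 1.497 and 1.70, and against similar genes without a neighbour their ratios were 2.95, 1.33 and 1.34. Of these 32, 29, 22 and 22 lay above that reference. With neighbour status matched, complex III was above complex V in JM08 (2.85 against 2.45) and below it in JM11 and JM12 (1.35 against 1.38 and 1.699 against 1.77). For complex IV the ratio with neighbour status matched was below 1 in JM12 (0.873), against 1.501 and 1.188 in JM08 and JM11.

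The density of PET ends was highest at gene starts. In bins of 250 bp around the annotated starts of the 82 genes with a promoter entry, density peaked at 28.6 (24.8 to 32.7) in JM08, 7.34 (6.24 to 8.57) in JM11 and 15.9 (13.8 to 18.3) in JM12. The peaks of 17492 protein-coding genes were 15.3, 4.05 and 7.85, so the lower limits for oxidative phosphorylation genes lay above them in each experiment. The 17492 genes were not matched in span or neighbours. The intervals cover counting error of the summed ends only, not the spread between the 82 genes. The peak bin was the first inside the gene in JM08 and JM12 and the last before the start in JM11. Among the 56 genes at least 5 kb long, density within 1 kb of the start was 14.1 (13.0 to 15.4), 3.56 (3.23 to 3.92) and 7.06 (6.45 to 7.72), and within 1 kb of the other end it was 3.35 (2.80 to 3.98), 1.28 (1.09 to 1.504) and 2.36 (2.01 to 2.76). The start held more ends than the other end in 49, 48 and 49 of the 56 genes (60.4%, 59.7% and 65.6% of all genes of that length). The other end held more in 6, 4 and 6 of the 56 genes and in 2288, 3370 and 2503 of all 13412 genes of that length. The rest were ties, 1, 4 and 1 of the 56 and 3020, 2032 and 2117 of the 13412. Ties count as not higher and were more common among all genes, so they widen the gap between these shares. For 13412 protein-coding genes of that length, starts had 8.21, 2.52 and 4.62 and other ends 2.05, 1.21 and 1.67.

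**Figure D4:**
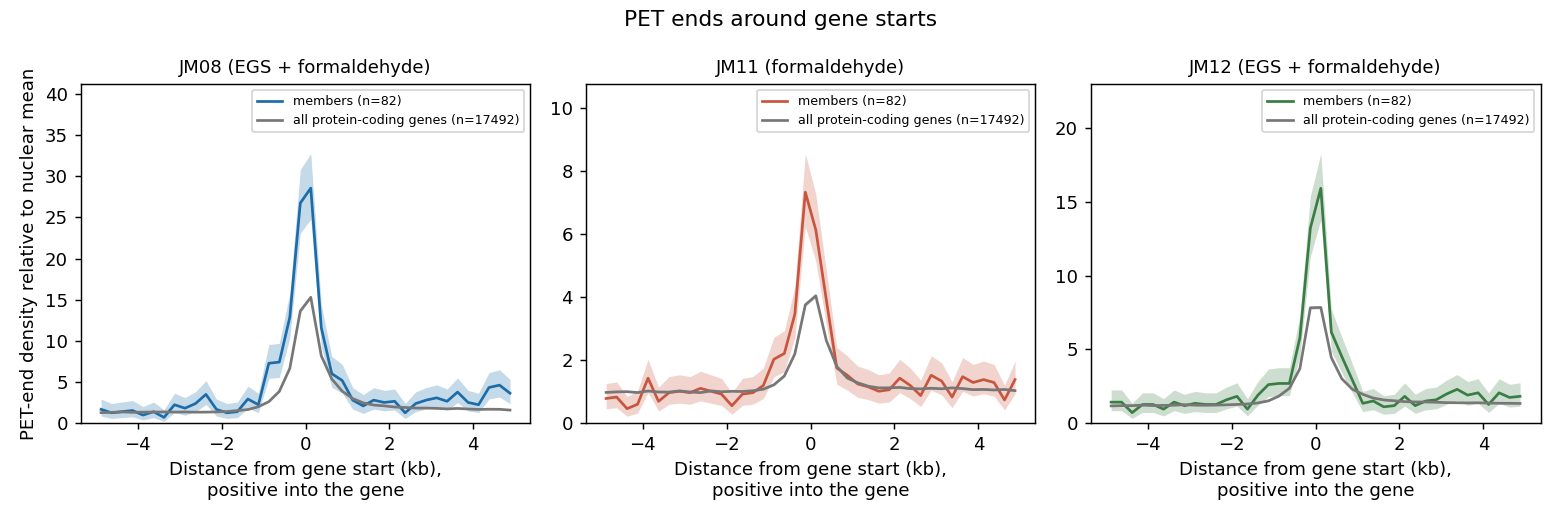
Density of PET ends relative to the nuclear mean in 250 bp bins by distance from the gene start (kb, positive into the gene), for 82 oxidative phosphorylation genes (coloured, band is the 95% Poisson interval) and 17492 protein-coding genes (grey); the vertical axes differ between experiments. Both curves peak at the start, at 28.6 against 15.3 in JM08, 7.34 against 4.05 in JM11 and 15.9 against 7.85 in JM12.

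Starts of many of these genes face another gene. A protein-coding gene of opposite strand began within 1 kb, in head-to-head orientation, for 22 of the 82 genes (26.8%) and for 7.52% of all genes with an entry. The facing genes include Timm8b at Sdhd, a mitochondrial import factor, Mrpl47 at Ndufb5, a mitochondrial ribosomal protein, Ccdc127 at Sdha and Lrrc41 at Uqcrh. At such pairs the ends of both promoters fall in 1 window, and how they divide was not tested. The densities of the 22 genes had medians of 3.77, 1.37 and 2.48 in JM08, JM11 and JM12 and the rest had 3.56, 1.43 and 2.31, whereas among all genes the head-to-head ones were denser (2.21, 1.33 and 1.88 against 1.18, 1.18 and 1.38). At the printed promoters, the number of ends within 500 bp of the start was 26, 8 and 15 for Uqcrh, 15, 10 and 10 for Sdha, 9, 9 and 7 for Atp5g2, 8, 4 and 5 for Cox6a1, 7, 16 and 13 for Atp5g3 and 6, 3 and 4 for Ndufa11.

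Only 3 of the genes lie on X. Ndufb11, a membrane-arm subunit of complex I (chrX:20615326-20617619), had 10, 4 and 6 ends, or 3.93 (1.89 to 7.23), 0.519 (0.141 to 1.33) and 1.34 (0.490 to 2.91). Cox7b, a small subunit of complex IV (chrX:106015700-106022450), had 4, 9 and 9 ends, or 0.977 (0.266 to 2.5), 0.725 (0.331 to 1.38) and 1.24 (0.569 to 2.36). With Ndufa1, given above, their medians were 1.66, 0.725 and 1.24, against 3.58, 1.43 and 2.34 for the 97 autosomal genes. The other 963 genes on X had medians of 0.504, 0.504 and 0.523, against 1.26, 1.22 and 1.46 for other autosomal genes. The sex of the mice was not given in the sources used here.

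The experiments ranked the genes alike but gave them different levels. Across the 100 genes, Spearman's rho was 0.61 between JM08 and JM11, 0.73 between JM08 and JM12 and 0.59 between JM11 and JM12, and over all genes it was 0.55, 0.73 and 0.58. These are descriptions, and the points share libraries. The median ratio of a gene's density in JM08 to that in JM11 was 2.38, against 1.16 over all protein-coding genes, and 91 of the 99 genes with a ratio (91.9%) were higher in JM08, as were 59.1% of the 20695 protein-coding genes with a ratio. From JM12 to JM11 the median ratio was 1.62 against 1.249, and from JM08 to JM12 it was 1.60 against 0.981. The genes with the highest JM08 to JM11 ratio were Ndufaf3, a complex I assembly factor, with 8.09 (32 and 12 ends), Ndufb11 with 7.58 and Uqcrh with 6.86. The lowest were Ndufb4b with 0.433 (1 and 7 ends, all in its flanks), Sdhaf3 with 0.470 (11 and 71 ends) and Cox8c with 0.607 (2 and 10 ends). Cox7b2, the testis isoform with the most ends of all in JM11 (168, in a gene of over 100 kb), had 0.910 (0.634 to 1.27) in JM08, 1.44 (1.23 to 1.68) in JM11 and 1.07 (0.842 to 1.35) in JM12.

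Density was also taken by class of PET. Counting only PETs with ends at most 8 kb apart, the median density of the 100 genes was 6.93 in JM08, 2.55 in JM11 and 2.87 in JM12, against 1.21, 1.14 and 1.38 for all genes. This class held only 873, 393 and 519 ends over the 100 genes, and a PET inside a window adds 2 ends. Its densities thus rest on few PETs a gene. Counting only PETs between chromosomes, it was 2.60, 1.33 and 1.98, against 1.195, 1.159 and 1.387. Both classes thus placed these genes above the median of all genes in each experiment.

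Contacts were taken as PETs with 1 end in a window and the other 8 kb to 1 Mb away outside it. There were 43, of which 23 were in JM08, 2 in JM11 and 18 in JM12, and 24 spanned at most 100 kb. They touched 28 of the 100 genes (28.0%), and 22.3% of all protein-coding genes had such a contact. The genes were not matched in number of ends for this comparison. Contacts in at least 2 experiments were seen for 4 genes (4.0%, against 3.48% of all genes), including Uqcrq, Atp5b and Atp5d. In JM08 and again in JM12, a PET joined the Uqcrq window to the region of Shroom1, a cytoskeletal gene, 26.4 kb and 31.4 kb away. A further Uqcrq PET spanned 995.4 kb in JM08. The near ends of all these Uqcrq PETs also lie in the flanked span of Gdf9, so they cannot be assigned to Uqcrq alone. Atp5d had 5 contacts of 11.0 to 26.3 kb, 2 in JM08 and 3 in JM12, 1 of which ended at Stk11, a kinase gene, and 2 at Midn. Midn reaches into the Atp5d window, and the near ends of 1 of its PETs and of the PET of 15.8 kb lie where the flanked spans of both genes overlap, so contacts of the 2 genes cannot be told apart there. The near ends of the other Atp5d contacts, including the one at Stk11, lie where the flanked span of Cbarp overlaps. None of the contacts can thus be assigned to Atp5d alone. Atp5b was joined to Ptges3 over 25.4 kb in JM08 and to Naca over 47.0 kb in JM12. It had 1 more over 212.4 kb, whose near end also lies in the flanked span of Baz2a.

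Some partners are liver-expressed genes, picked out after the contacts were seen, and their share among all partners was not counted. Sdhc was joined over 81.6 kb in JM08 to the neighbouring pair Tomm40l, of the mitochondrial import machinery, and Apoa2, an abundant liver apolipoprotein. Ndufc2, a complex I membrane-arm subunit, was joined over 16.2 kb to Thrsp, a lipogenic liver gene, by 2 PETs of JM08 whose far ends lay 2 bp apart and which count as 1 when PETs within 10 bp are collapsed. Further genes with at least 2 contacts included Ndufa11, Ndufb10, Ndufs7 and Ndufv3. The Ndufb10 contacts, 164.4 and 169.4 kb long in JM08, both ended at Spsb3. Their near ends lie in the flank outside Ndufb10 and in the flanked span of Rps2. The near ends of the Ndufa11 contacts are likewise shared with Vmac and those of the Ndufv3 contacts with Wdr4. A single contact was seen for each of Ndufa13, Ndufa2, Ndufa3, Ndufa4l2, Ndufaf6, Ndufb11, Ndufs1, Ndufs8, Ndufv1, Ndufv2, Sdhaf3, Uqcr11, Uqcrfs1, Cox4i1, Cox7a2, Cox7b2, Cox7c and Atp5h. With 1 to 5 PETs a gene, no contact could be compared between experiments.

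Other genes of the pathway had lower medians in JM08 and JM12. The 35 genes for electron carriers and assembly outside the naming rule had medians of 2.56, 1.42 and 1.95 in JM08, JM11 and JM12, and 6 of them reached a density of 2 in all 3 experiments (Cox14, Cox20, Cyc1, Cycs, Foxred1 and Sco2). Cox20, a chaperone of complex IV, had 17.0, 3.45 and 7.95, and Cyc1 and Cycs, which encode cytochromes c1 and c, had 9.26, 2.32 and 3.98 and 6.69, 2.31 and 2.89. The 13 citric acid cycle genes had medians of 2.85, 1.253 and 1.87, none reached 2 in all experiments, and Mdh2 was at 6.51, 1.64 and 3.01. The 14 regulators had the lowest medians of these lists in JM08, with 1.73, 1.31 and 1.89. Of the regulators, Esrra, an estrogen-related receptor, had 7.85, 2.00 and 3.74, and Polrmt, the mitochondrial RNA polymerase, had 3.34, 2.08 and 2.41, both at or above 2 in each experiment. Nrf1 had 1.38, 1.27 and 1.24 and Ppargc1a 1.11, 1.31 and 1.28.

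The table held 474478, 1438866 and 840210 PETs for JM08, JM11 and JM12. Hepatocyte markers checked the tissue label: 5 of 6 were at or above 2 in all experiments (5.32% of all genes). Their list medians were 46.0, 6.09 and 10.8, with Alb at 105.3, 9.26 and 15.8. The list medians of other liver cell types ran from 1.03 to 1.56 in JM08, 1.26 to 1.59 in JM11 and 1.22 to 1.88 in JM12. Of those 16 markers 1, Sox9 of cholangiocytes, was at or above 2 in each experiment, and genes of other tissues had medians of 0.696, 1.49 and 1.23. In a mixed tissue, fewer cells of a type and less Pol II per cell cannot be told apart.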

How the data were processed

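Pol II ChIA-PET was measured in 8 libraries of mouse liver, 4 at ZT06 and 4 at ZT18. The authors deposited 1 table of PETs with, for each PET, the experiment, linker, both positions and a distance, but no library or time point. Bowtie2 and mm10 are named in the submitters' processing notes. How PETs were filtered and whether duplicates were removed was not given in the sources used here.

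PETs with a mitochondrial end were set aside, leaving 474466, 1438852 and 837971. Ends were counted over RefSeq gene spans (GRCm38.p6) with 2.5 kb either side, divided by the nuclear mean. A density of at least 2 was used as the threshold. With 1 pool per experiment no test was run, so no p-value is given, and intervals are exact Poisson ones at 95%. The counting steps were tested on simulated data. Python 3.11.15, numpy 2.4.6, pandas 2.3.3, scipy 1.17.1 and matplotlib 3.10.9 were used. The genes and lists were chosen with earlier results of these data known. Named are all genes of complexes II and III, in the others the 3 highest and 2 lowest by mean log2 density, isoform pairs, genes on X or with contacts (1 gene is counted but its own values are not reported here), and the 3 highest and lowest JM08 to JM11 ratios. Other genes, such as the c-ring genes, were named after their values were seen. Alternatives covered flanks, PET classes, collapsing PETs within 10 bp, neighbours, thresholds and leaving out an experiment.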

Additional observations from a re-analysis of the deposited data

Results flagged for a closer look

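PETs that touched the mitochondrial chromosome were kept out of every density above, and they differed widely between the experiments. There were 12 in JM08, 14 in JM11 and 2239 in JM12, all above the level that a count of 0 would allow (3 counts). Of their ends, 9, 13 and 1551 lay in the 13 mitochondrial protein-coding genes, which encode the remaining subunits of complexes I, III, IV and V. Most joined the mitochondrial to the nuclear chromosomes (11, 13 and 1953 PETs), and the nuclear end lay in an oxidative phosphorylation gene window in 0, 0 and 1 of them. JM08 and JM12 share the crosslinking protocol, and what sets JM12 apart was not tested.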

How the results depend on the processing

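Of 184 alternative values for 16 results, 155 stayed within their limits (counts within 1.5 times, medians within counting error or 1 SD over experiments) and 29 moved. The SD over experiments holds their difference in level and is a wide limit. The mean for complex II, for example, went from 2.07 to 1.42 with only genes without a neighbour and counts as within it. No paired analysis was possible because no column names the libraries. With only PETs within 8 kb, the median density rose to 6.93 in JM08 and 2.55 in JM11, and the means over experiments to 4.35, 3.50, 6.23 and 7.33 for complexes I, II, III and V. All values from PETs within 8 kb rest on few PETs a gene. The 15 genes at or above 2 in all experiments (5.32% of all genes) became 23 without flanks (5.35%), 29 with flanks of 1 kb (6.43%), 40 with PETs within 8 kb (16.6%), 9 with PETs between chromosomes (2.96%), 36 at a threshold of 1.5 (13.1%), 3 at a threshold of 3 (1.69%), and 4 of 32 genes without a neighbour. The leave-one-out range of this count was 16 to 52, with 52 (4149 of all 21887 genes) without JM11. Asking for 2 experiments in place of 3 can only keep or raise the count, so this direction was fixed in advance. In JM11 the count of 17 (6.52% of all genes) became 33 with flanks of 1 kb (8.33%), 65 within 8 kb (33.1%), 11 between chromosomes (4.07%), and 41 (20.8%) and 4 (1.79%) at thresholds of 1.5 and 3. In JM12 the count of 56 (25.4%) became 32 relative to the median of all genes (11.1%) and 29 at a threshold of 3 (9.71%). Of the 32 genes without a neighbour, 19, 5 and 14 (59.4%, 15.6% and 43.8%) reached 2 in JM08, JM11 and JM12, as did 17.5%, 3.89% and 15.4% of other genes without a neighbour, and 27, 22 and 16 lay above genes of similar span, so the JM12 count there was at the background. The counts over these 32 genes were held to limits for counts over 100 genes, so the smaller set alone can move them. In JM11 the share at or above 2 was 15.6% against 17.0% for all 100 genes. The JM11 share above genes of similar span was 68.8% against 71.0%. The cause of the other moves was not tested. The 43 contacts became 20 without JM08, 25 without JM12 and 41 without JM11, and leaving out an experiment cannot raise this number. The leave-one-out means by complex ran from 1.76 to 2.87 for I, 1.59 to 2.47 for II, 2.20 to 3.54 for III, 1.47 to 2.19 for IV and 2.34 to 4.28 for V. Leaving out 1 of 3 values cannot shift their mean by as much as their SD. These means, counted among the 155, could therefore not have moved, and their staying within 1 SD shows nothing. The same holds with subunits only for the count of 15 and for the means of complexes III and V, since all those genes are subunits. The median of 17 to 22 ends a gene limits the precision of single genes.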

Other observations

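Mitochondrial biogenesis is often described as coordinated, so PETs joining one oxidative phosphorylation gene to another were counted. There were 4, each joining a different pair once: Cox7b2 with Ndufb9 in JM11, and Ndufa9 with Ndufaf7, Ndufaf5 with Sdhc and Ndufb6 with Sdhaf1 in JM08. Among PETs between chromosomes with an end in one of the windows, the other end was in another window in 0.259% in JM08 (exact binomial interval 0.0535 to 0.756%), 0.0460% in JM11 (0.00116 to 0.256%) and 0% in JM12 (up to 0.213%). The windows held 0.167%, 0.0853% and 0.129% of all ends of such PETs, which lie within those intervals, so no joining among these genes beyond their share of ends was detectable at this depth.

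Each experiment holds PETs with either of a pair of linkers, ATGT and TAAG, and what these mark was not given in the sources used here. The median density of the 100 genes was 3.75 with ATGT and 3.24 with TAAG in JM08, 1.83 and 1.37 in JM11, and 2.08 and 2.18 in JM12. All genes had medians of 1.186 and 1.204, 1.198 and 1.170, and 1.394 and 1.392.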
